A study of Mus musculus with 8 samples.

Results

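Mouse Zfp genes expressed in spermatocytes were followed here from early to late meiotic prophase, with and without Cnot4. A gene was a member when its symbol was Zfp followed by digits alone, Zfp36 left aside, and its mean over the 8 libraries was at least 5 FPKM (fragments per kilobase of exon, scaled to the mapped total). The rule gave 129 genes of the 339 Zfp symbols in the files, which list 23235 symbols in all. The members were chosen by mean FPKM, so their level is a description and carries no test. All 129 were among the 15899 genes tested, as were 168 of the 210 Zfp symbols below that mean.

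The study sorted spermatocytes from C57BL/6 males, 6-week-old by the methods (the labels give no age), by their DNA staining into LZ cells (leptotene and zygotene) and PD cells (pachytene and diplotene) and sequenced their RNA. The groups were WT LZ, WT PD, Cnot4-null LZ and Cnot4-null PD, each with 2 libraries. Cnot4-null, written Cnot4-KO in the labels, stands for Cnot4 fl/fl;Stra8-Cre males, in which Stra8-Cre acts in germ cells before meiosis and leaves other testis cells with Cnot4. The alleles of the WT males are not stated. By the methods the duplicates are biological replicates, without a word on whether they came from different males. The labels name a TruSeq kit on Trizol RNA and the methods name amplified Smart-Seq2 cDNA, and which of them applies cannot be told.

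Zfp proteins mostly carry C2H2 fingers, each a short fold around a zinc ion that reads a few bases of DNA, and arrays of fingers read longer sites. In many of them a KRAB domain binds TRIM28, which brings SETDB1 and HP1 proteins to silence chromatin, often at transposable elements. Spermatocytes reshape their transcription between the early and late stages of meiotic prophase, and several Zfp genes were first described from testis.

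Cnot4 itself, which encodes an E3 ubiquitin ligase that associates with the CCR4-NOT complex, was at 36.0 and 34.9 FPKM in WT and 43.2 and 34.6 in the null at LZ, and 76.6 and 73.1 in WT and 65.9 and 53.5 in the null at PD. The genotypes overlapped at LZ, and at PD both null libraries lay below both WT libraries. Its genotype change was 0.12 ± 0.20 on the log2 scale at LZ (limma, adjusted p = 1.00) and -0.33 ± 0.20 at PD (adjusted p = 0.192), called lower after rescaling (-1.75, adjusted p = 0.000501) and not after quantile normalization (-0.21, adjusted p = 0.306). The deletion takes out one exon of Cnot4, so FPKM over the whole gene does not check the label.

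Marker lists separated the stages in WT and gave a mixed signal in the Cnot4-null PD libraries. LZ spermatocyte markers, led by Stra8 and with 6 of 8 listed genes in the files (Meiob and Meioc were not), summed to 495 and 505 FPKM in WT and 889 and 548 in the null at LZ, and 10.6 and 8.47 in WT and 244 and 170 in the null at PD. The 12 PD spermatocyte markers, led by Ldhc except in Cnot4-null LZ 2, where Aurka led, summed to 296, 422, 298 and 169 in the same order of LZ libraries, and at PD to 13076 and 12127 in WT and 6110 and 2306 in the null. Both Cnot4-null PD libraries thus held more LZ marker signal and less PD marker signal than both WT PD libraries. Between WT stages all 6 LZ markers fell and all 12 PD markers rose, while in the genotype change at PD 5 of 6 LZ markers were higher and 5 of 12 PD markers lower. Without WT PD 1, as without WT PD 2, 3 LZ markers were called higher and 2 PD markers lower, and without Cnot4-null PD 1 these were 5 and 9, and without Cnot4-null PD 2 they were 3 and 3.

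Markers of other testis cells were also high in both Cnot4-null PD libraries. The 8 Leydig cell markers, led by Insl3, summed to 26.2 and 17.2 FPKM in WT and 14.3 and 22.4 in the null at LZ, and 135 and 9.85 in WT and 11297 and 24322 in the null at PD. Cyp11a1 and Cyp17a1, which define Leydig cells, were at 0 in WT LZ 2 and WT PD 2, and no Leydig marker was at 0 in either Cnot4-null PD library. The 8 spermatid markers, led by Prm1 except in Cnot4-null LZ 2 and WT PD 2, where Prm2 led, summed to 1849, 1541, 4071 and 723 in the LZ libraries, and at PD to 429 and 276 in WT and 16075 and 7529 in the null. The 8 spermatogonium markers, led by Uchl1, summed to 735, 697, 481 and 671 in the LZ libraries, and at PD to 20.3 and 13.0 in WT and 339 and 465 in the null. WT PD was thus the group with the least signal of both these germ cell lists.

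Somatic lists other than Leydig cells gave smaller sums with the same pair of libraries at the top. The 7 Sertoli cell markers found (Rhox5 was not in the files), led by Clu except in Cnot4-null LZ 1, where Aard led, summed to 80.8, 77.7, 13.6 and 12.5 FPKM in the LZ libraries, and at PD to 10.4 and 19.9 in WT and 111 and 222 in the null. Amh was at 0 in every library except Cnot4-null PD 2. The 8 myoid and vessel markers, led by Sparc except in Cnot4-null LZ 1, where Tagln led, summed to 21.7, 16.0, 6.87 and 6.98 in the LZ libraries, and at PD to 8.30 and 6.32 in WT and 189 and 531 in the null. The 8 macrophage markers, led by Cd74 in Cnot4-null PD, summed to 39.5, 1.03, 22.2 and 5.12 in the LZ libraries, and at PD to 3.37 and 2.96 in WT and 43.9 and 193 in the null. In the genotype change at PD all 8 Leydig, all 8 spermatid and all 8 spermatogonium markers were higher, as were 7 of 7 tested myoid and vessel, 4 of 6 tested Sertoli and 4 of 8 macrophage markers. Without WT PD 1, as without WT PD 2, 8 Leydig, 6 spermatogonium, 4 myoid and vessel, 2 Sertoli and 0 macrophage markers were still called, and at least 7 spermatid markers. Macrophage calls numbered 5 without Cnot4-null PD 1 and 1 without Cnot4-null PD 2. Every difference below that involves Cnot4-null PD stands beside these sums, and their part in the result was not tested. In the WT stage change 7 of 8 spermatogonium and 5 of 6 tested Sertoli markers were lower at PD. Fewer of them were called when some WT libraries were left out, and their part was not tested either. In such bulk samples fewer cells of a type and less RNA per cell cannot be told apart.

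**Figure D1:**
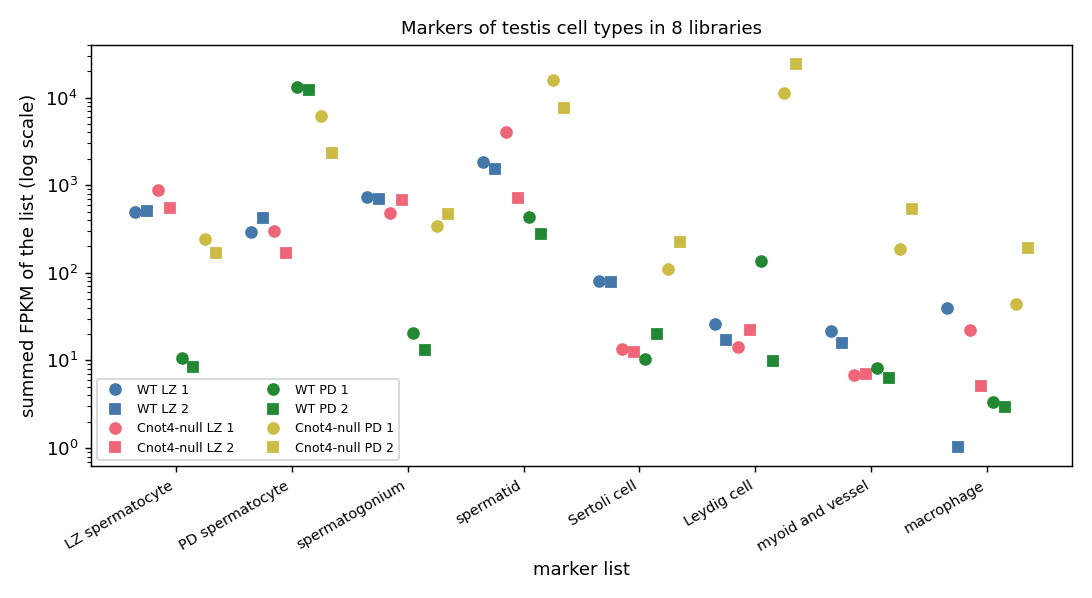
Summed FPKM of each marker list in each of the 8 libraries on a log axis. Leydig cell markers sum to 11297 and 24322 FPKM in Cnot4-null PD and to at most 135 in the other libraries.

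The number of genes detected moved with the same split. Genes above 1 FPKM numbered 11734 and 11823 in WT and 11822 and 11538 in the null at LZ, and 10103 and 10076 in WT and 13887 and 14249 in the null at PD. The median tested gene stood at 5.57 and 5.69 FPKM in WT and 5.78 and 5.18 in the null at LZ, and at 3.05 and 3.04 in WT and 8.09 and 8.43 in the null at PD. The median member moved less, in WT from 12.5 and 10.9 at LZ to 9.37 and 9.76 at PD, and in the null from 13.4 and 11.8 to 10 in both PD libraries. Changes are therefore given on the FPKM scale and against the median change over every gene tested, and were recomputed after quantile normalization and after rescaling each library to the same median.

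The members ranged widely in level. Zfp672, with 13 fingers (chr11:58128616-58136848, minus strand, mm9), had the highest mean, and stood at 168 and 239 FPKM in WT and 196 and 127 in the null at LZ, and at 202 and 198 in WT and 83.6 and 85.6 in the null at PD. Both Cnot4-null PD libraries were below every other library. Zfp207 (chr11:80196781-80219235, plus strand), known as BuGZ, a Bub3 partner at kinetochores, stood at 98.7 and 86.3 in WT and 119 and 115 in the null at LZ, and at 57.1 and 56.1 in WT and 70.6 and 84.5 in the null at PD. All 4 LZ libraries lay above all 4 PD libraries, and exons of another gene overlap Zfp207 on its own strand, so part of its signal could not be assigned. Zfp330 (chr8:85287520-85298059, minus strand), which encodes a nucleolar protein with no C2H2 finger pattern, stood at 51.1 and 67.8, at 84.0 and 78.9, at 11.4 and 12.2, and at 67.4 and 47.3 FPKM, with the groups taken as for Zfp207. WT PD was far below the other groups, of which WT LZ and Cnot4-null PD overlapped. Zfp607 (chr7:28647576-28664586, plus strand), a KRAB member with 18 fingers, stood at 74.7 and 60.4, 108 and 98.3, 10.8 and 10.6, and 39.5 and 39.3 in the same order. Its groups did not overlap, and 14% of its 50-base stretches also occur in transcripts of other genes.

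At the edge of the rule, Zfp59 had a mean of 5.042 FPKM and Zfp867 a mean of 5.043, just inside. Zfp825 with 4.945 and Zfp187 with 4.858 lay just outside. In single libraries between 87 and 116 members reached 5 FPKM, with the fewest in WT PD. Duplicate libraries ranked the members alike, with Spearman coefficients across members of 0.880 (WT) and 0.898 (null) at LZ and 0.987 (WT) and 0.789 (null) at PD, where genes are not independent replicates. Members that differed more than 2-fold on log2(FPKM + 1) between duplicates numbered 4 and 2 at LZ and 0 and 14 at PD in WT and null. The 14 in Cnot4-null PD included Zfp185, Zfp389, Zfp583 and Zfp956.

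**Figure D2:**
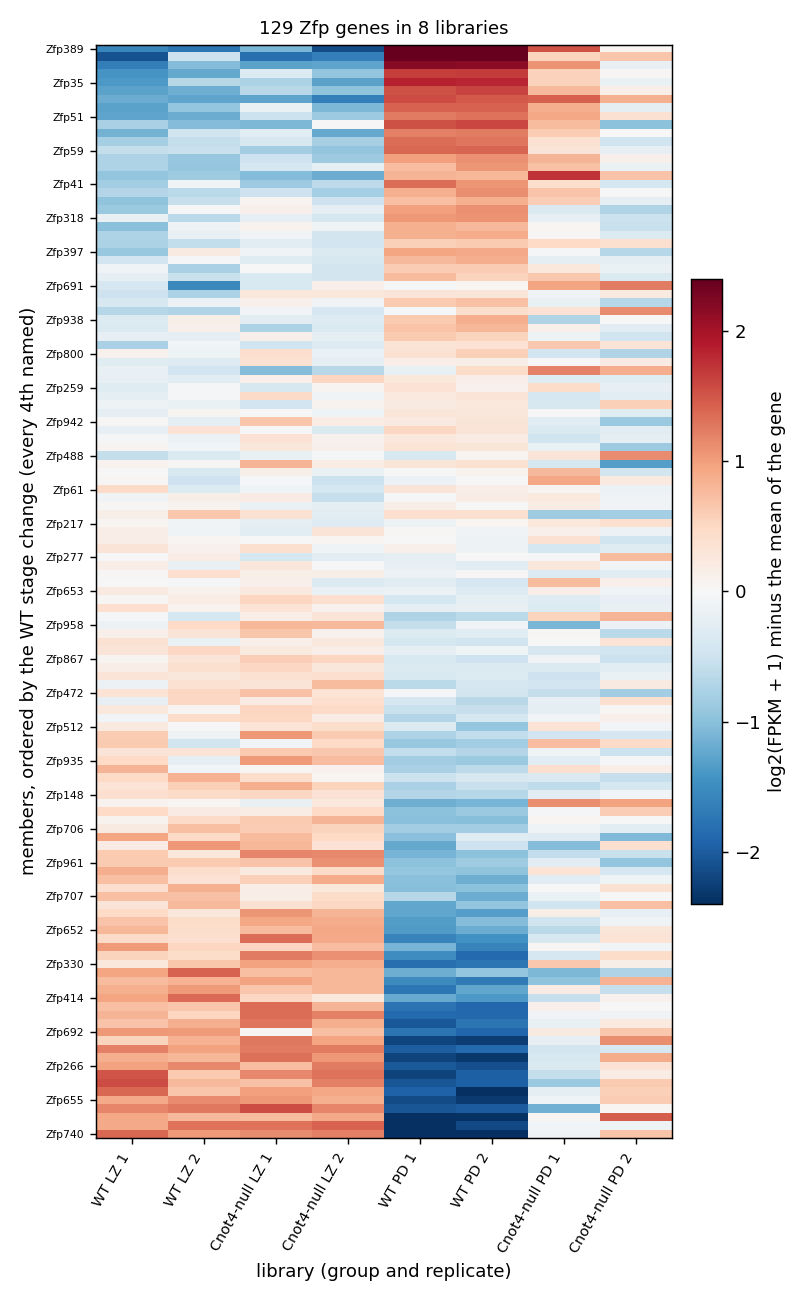
Each of the 129 members (ordered by its WT stage change) in each of the 8 libraries, as log2(FPKM + 1) minus the gene's mean. No member differs more than 2-fold between the WT PD duplicates, and 14 do between the Cnot4-null PD duplicates.

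In sequence the members were a mixed family. By the translations of the GENCODE vM1 transcripts, 45 of the 128 members with a coding transcript held a KRAB A box pattern and 83 did not. Fingers had a median of 8.50 a protein, with 11 in KRAB members and 6.00 in the others, and the most, 36, in Zfp142. No finger pattern was found in Zfp185, Zfp259, Zfp330 and Zfp839. In 14 members more than 5% of the 50-base stretches were shared with transcripts of other genes, and 81 members shared none. Chromosome 7 held 21 members, 11 of them with KRAB, chromosome 5 held 13, and chromosomes 17 and 8 held 12 each.

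The KRAB A box, the stretch through which these proteins meet TRIM28, is shown for 2 KRAB members with a large rise from WT LZ to WT PD and the 3 with the largest fall. All 5 were picked for holding the pattern, so sharing it is a description and carries no test. Each run is 39 coding bases from GENCODE vM1 (mm9), 5′ to 3′, and capitals mark the 16 positions that are the same in all 5. The log2 stage changes were 2.80 and 2.48 for Zfp110 and Zfp286, and -3.25, -3.24 and -3.19 for Zfp68, Zfp655 and Zfp566. Zfp54, with the largest rise among KRAB members (3.71), is not shown. Without WT PD the mean of Zfp286 is below 5 FPKM, so its rise is not independent of the rule for members. The rise of Zfp286 was not called by limma without WT LZ 2 or WT PD 2 (adjusted p up to 0.0540). Identity between pairs ran from 56.4% to 79.5%, the latter between Zfp286 and Zfp655.
Zfp110: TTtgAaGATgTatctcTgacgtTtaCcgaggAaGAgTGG
Zfp286: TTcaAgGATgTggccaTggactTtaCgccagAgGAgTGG
Zfp68: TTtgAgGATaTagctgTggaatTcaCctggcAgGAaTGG
Zfp655: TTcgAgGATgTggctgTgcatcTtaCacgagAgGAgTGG
Zfp566: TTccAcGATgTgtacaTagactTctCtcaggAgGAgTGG

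From LZ to PD in WT, Zfp transcripts went both ways and by large amounts. Zfp389 rose 17.5-fold, Zfp54 13.1-fold and Zfp956 11.5-fold, while Zfp740 was 14.7-fold and Zfp711 11.2-fold lower at PD, each on FPKM + 1. By limma, 33 of the 129 members rose (25.6%) and 53 fell (41.1%) at adjusted p under 0.05, where 21.6% of all genes tested rose and 36.2% fell. Among the 9348 genes with a mean of at least 5 FPKM, 27.4% rose and 43.2% fell, so the members' shares lie near their background and are not a result about them. Rises ran from 0.80 for Zfp238 to 4.13 on the log2 scale and falls from -0.57 to -3.88, and the median size of change was 1.21 in members and 1.11 in all genes. The balance of rises and falls depended on scaling, with 33 up and 53 down on the FPKM scale, 42 and 36 after quantile normalization and 58 and 31 after rescaling. Over all genes these counts were 3436 and 5754, 4120 and 4815, and 5174 and 4265. The members' median was -0.38, 0.10 and 0.44 under the 3 scalings and the median of all genes -0.32, -0.063 and 0.050. All 33 rises were called under each scaling, while 36 and 31 of the 53 falls were kept under quantile normalization and rescaling.

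Among the rises, Zfp389 (chr13:21596251-21596925, minus strand, mm9; annotated there as a pseudogene, and whether the authors' gene model covers that interval is not known) stood at 11.1 and 9.68 FPKM in WT LZ and at 185 and 211 in WT PD. The stages were far apart in WT. Its change was 4.13 ± 0.51 on the log2 scale (SE, 2 libraries a group, adjusted p = 0.000361), or 4.44 above the median change of all genes. Zfp54 (chr17:21560191-21572604, plus strand), a KRAB member with 12 fingers, stood at 0.0667 and 2.21 in WT LZ and at 23.6 and 22.9 in WT PD. It was near 0 in one LZ library and low in the other, and it rose by 3.71 ± 0.48 (adjusted p = 0.000448). Zfp956 (chr6:47903389-47915299, plus strand), with 6 fingers, went from 5.66 and 9.15 to 94.3 and 93.4. Both WT PD libraries were far above both LZ libraries, a change of 3.53 ± 0.41 (adjusted p = 0.000268), although exons of another gene on its strand overlap it. Zfp189 (chr4:49534048-49544389, plus strand), with 16 fingers, went from 0.669 and 0.897 to 13.0 and 13.2. It was below 1 FPKM in both WT LZ libraries and rose by 2.99 ± 0.32 (adjusted p = 0.000187). Zfp35, with 17 fingers and first described from testis, went from 10 and 17.1 to 102 and 100. It rose by 2.85 ± 0.34 (adjusted p = 0.000322). The rule for members and these changes are not independent, since 6 members (Zfp51, Zfp54, Zfp59, Zfp189, Zfp286 and Zfp560) have a mean below 5 FPKM over the libraries other than WT PD, and all 6 were among the 33 rises. Without WT LZ the mean of 5 members was below 5, and 4 of those were among the falls, as were 7 of the 11 whose mean was below 5 without Cnot4-null LZ.

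Falls left several members near 0 in WT PD. Zfp740 (chr15:102034079-102046037, plus strand), with 2 fingers, stood at 18.9 and 14.4 FPKM in WT LZ and at 0.218 and 0.166 in WT PD. It was all but absent from both WT PD libraries, and it changed by -3.88 ± 0.31 (adjusted p = 5.98e-05), or by -3.56 relative to all genes. Zfp711 (chrX:109714135-109748679, plus strand), an X-linked partner of the histone demethylase PHF8, went from 17.9 and 23.7 to 0.683 and 1.22. The fall of -3.48 ± 0.25 (adjusted p = 4.09e-05) separated the stages fully. Zfp185 (chrX:70232678-70276882, plus strand), which encodes an actin-binding LIM protein in place of a C2H2 protein, went from 13.2 and 11.8 to 0.344 and 0.455. Its change was -3.27 ± 0.43 (adjusted p = 0.000490). These are the members on the X chromosome, where 403 of all 648 genes tested fell in WT and 6 rose. Zfp68 (chr5:139045844-139060989, minus strand), a KRAB member with 9 fingers, went from 12.5 and 13.4 to 0.433 and 0.503, a change of -3.25 ± 0.40 (adjusted p = 0.000355). Zfp655 (chr5:145992592-146008175, plus strand), a KRAB member with 6 fingers, went from 24.7 and 28.9 to 2.09 and 1.77, a change of -3.24 ± 0.28 (adjusted p = 7.65e-05). For all 10 of these rising and falling genes the call was kept whichever WT library was left out, with the change of Zfp54 between 2.92 and 4.51 on the log2 scale.

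**Figure D3:**
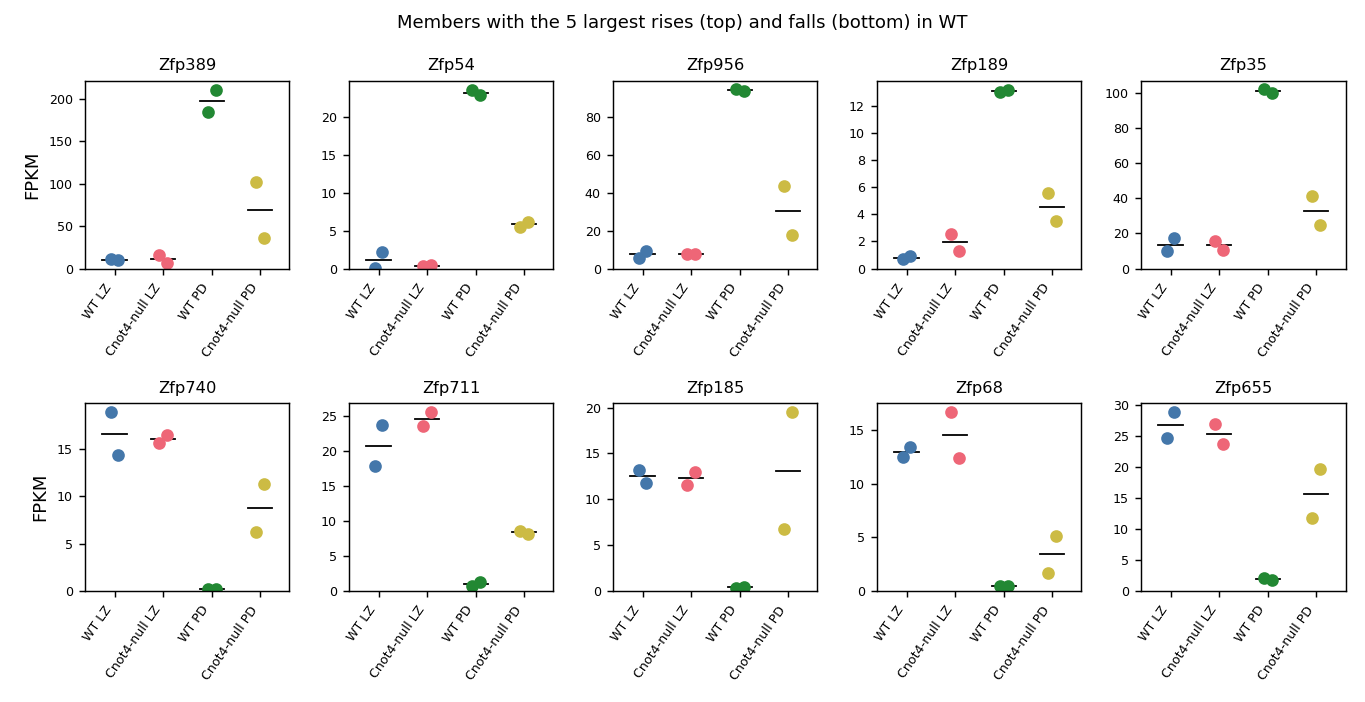
FPKM of the 5 members with the largest rise and the 5 with the largest fall in WT, one point a library and a line at each group mean. Zfp740 lies at 0.218 and 0.166 FPKM for WT PD and at 6.19 and 11.3 for Cnot4-null PD.

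Splitting the members by sequence gave groups whose direction turned with scaling. Over all genes tested 21.6% rose and 36.2% fell, and at a mean of at least 5 FPKM 27.4% and 43.2%. KRAB members had 10 rises (22.2%) and 20 falls (44.4%) of 45 on the FPKM scale with a median of -0.61, but 15 and 12 after quantile normalization and 20 and 12 after rescaling. Without WT PD 1 the KRAB rises numbered 6, and without WT PD 2 they numbered 5. Members without KRAB had 22 rises and 33 falls of 83 with a median of -0.27, then 26 and 24, and 37 and 19 under the same scalings. The 25 members with 0 to 3 fingers had 4 rises and 14 falls with a median of -0.75, then 4 and 11, and 8 and 6. On chromosome 5 no member of 13 rose and 10 fell with a median of -1.63, and falls outnumbered rises by 8 to 1 under both other scalings. All genes tested on chromosome 5 had 228 rises and 348 falls of 939. The chromosome 5 group was singled out after its values were seen. Chromosome 8 members had 1 rise and 7 falls of 12 on the FPKM scale, with a median of -1.03. Those on chromosome 7 had 7 and 5 of 21, and those on chromosome 17 had 4 and 4 of 12. All genes tested on these had 183 and 290 of 807, 245 and 374 of 1172, and 181 and 272 of 762.

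Promoters of rising members were searched for the letters CNGTTA and CNGTTG on both strands, which the MYB family binds, since A-MYB (Mybl1) drives pachytene genes. In the 250 bases before the start (RefSeq, GRCm38.p6) 62.5% of the 24 rising members matched held either, as did 47.7% of 44 falling members, 51.2% of 41 not called and 43.0% of all 27025 promoters. The letters CCAAT occurred in 37.5%, 38.6%, 56.1% and 34.5% of these, and TGACGTCA in 0%, 6.82%, 2.44% and 1.62%. Median GC content was 57.0% in rising and 56.8% in falling members and 52.0% in all promoters. Over all 109 members matched, 52.3% held CNGTTA or CNGTTG. Zfp54, Zfp59, Zfp189 and Zfp560, members only through WT PD, were among the rising members that held either. The share in rising members is thus not independent of the rule for members. A match is a description of letters, and binding was not measured. Shown are the last 150 bases before the start of 3 rising members that hold a match there, with the match in capitals: Zfp54 at chr17:21423077-21423226, Zfp189 at chr4:49521026-49521175 and Zfp59 at chr7:27838434-27838583, all on the plus strand. All 3 are members only through WT PD, so their rises are not independent of the rule for members.
Zfp54: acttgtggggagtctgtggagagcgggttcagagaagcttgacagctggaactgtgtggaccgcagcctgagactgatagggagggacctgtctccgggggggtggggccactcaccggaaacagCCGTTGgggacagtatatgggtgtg
Zfp189: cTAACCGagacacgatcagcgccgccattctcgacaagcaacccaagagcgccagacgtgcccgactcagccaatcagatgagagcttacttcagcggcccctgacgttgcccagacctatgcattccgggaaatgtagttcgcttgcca
Zfp59: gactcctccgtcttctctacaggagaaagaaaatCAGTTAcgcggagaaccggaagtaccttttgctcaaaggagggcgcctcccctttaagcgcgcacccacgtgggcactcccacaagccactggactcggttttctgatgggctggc

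The same stage step in Cnot4-null cells covered a shorter range. Zfp389 went from 15.7 and 7.06 FPKM in Cnot4-null LZ to 102 and 36.0 in Cnot4-null PD, Zfp54 from 0.285 and 0.442 to 5.52 and 6.16, and Zfp740 from 15.7 and 16.5 to 6.19 and 11.3. The groups did not overlap for any of these, but the PD duplicates of Zfp389 were far apart. Zfp389 rose by 2.41 ± 0.51 (adjusted p = 0.00796), a call lost without Cnot4-null LZ 2 (adjusted p = 0.0627). Zfp54 rose by 2.33 ± 0.48 (adjusted p = 0.00714), a call lost without Cnot4-null LZ 1 (adjusted p = 0.0522). Zfp740 was not called at -0.86 ± 0.31 (adjusted p = 0.0560), although the difference from its WT change was (3.02, adjusted p = 0.00398). The median size of change was 0.70 in members, beside 1.21 in WT, and 0.83 over all genes, beside 1.11.

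By limma 19 members rose (14.7%) and 37 fell (28.7%) in the null, where 27.8% of all genes tested rose and 18.2% fell. Among genes with a mean of at least 5 FPKM, 26.9% rose and 27.1% fell. The members' median was -0.31 and that of all genes 0.19. Under quantile normalization 10 members rose and 58 fell, with medians of -0.73 and -0.29, and after rescaling 8 and 66, with medians of -0.81 and -0.22. All genes tested had 2974 rises and 4986 falls, and 3326 and 5183, under these scalings. Genes with a mean of at least 5 FPKM had 2513 and 2532 on the FPKM scale, nearly equal. Under the other 2 they had 2258 and 3599, and 1933 and 4407, where more fell than rose. On the FPKM scale their rises outnumbered their falls without either Cnot4-null LZ library or Cnot4-null PD 2. Members had 19 rises and 37 falls on that scale. Single libraries moved these counts, to 10 rises and 10 falls without Cnot4-null LZ 1, to 6 and 19 without Cnot4-null LZ 2, to 16 and 28 without Cnot4-null PD 1, and to 23 and 39 without Cnot4-null PD 2. All genes then had 3212 and 1432, 2898 and 1930, 4737 and 3019, and 5134 and 3199.

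The stage changes of WT and null share no library and can be set side by side. The rises had 13 genes in common, 13 of 33 in WT and 13 of 19 in the null, among them Zfp110, whose call in the null was kept whichever null library was left out. Without Cnot4-null PD the mean of Zfp37, Zfp51, Zfp335 and Zfp949 was below 5 FPKM, and all of these but Zfp335 were among the 19 rises in the null, which are thus not independent of the rule for members. Falls had 29 genes in common, 29 of 53 in WT and 29 of 37 in the null. The common rises were 39.4% of those in WT, where the share was 64.3% over all genes tested and 67.0% over genes with a mean of at least 5 FPKM, and 68.4% of those in the null, beside 2210 of 4423 and 68.3%. The common falls were 54.7% of those in WT, beside 44.1% over all genes tested and 2220 of 4039 falls over genes with such a mean, and 78.4% of those in the null, beside 87.7% over both. Only Zfp428 fell in WT and rose in the null, and no member did the reverse, where 230 and 6 of all genes tested did so. Zfp428 (chr7:25292106-25300701, plus strand), with 1 finger and named here after its values were seen, stood at 16.2 and 15.6 FPKM in WT and 13.2 and 18.1 in the null at LZ, and at 6.13 and 6.47 in WT and 34.1 and 30.5 in the null at PD. WT PD was the lowest group and Cnot4-null PD the highest, with no overlap between them. Its change was -1.21 ± 0.22 in WT (adjusted p = 0.00234) and 1.02 ± 0.22 in the null (adjusted p = 0.00867), a difference of 2.23 between the genotypes (adjusted p = 0.00345). After rescaling neither stage change of Zfp428 was called, with adjusted p = 0.181 in WT and 0.161 in the null, nor was the difference (adjusted p = 0.0763).

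**Figure D4:**
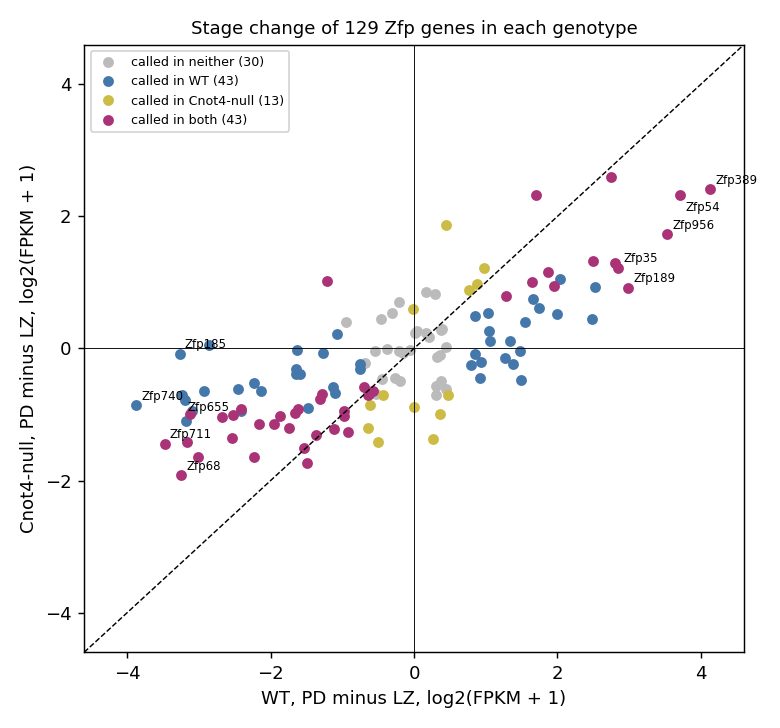
Stage change (log2, PD minus LZ) of each member in WT on the horizontal axis and in Cnot4-null on the vertical axis, coloured by the genotype in which it was called, with a dashed line where both are equal. The median size of change is 1.21 in WT and 0.70 in Cnot4-null, and 43 members were called in both.

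At LZ no member passed the test between genotypes. Zfp944 had the largest positive change and Zfp414 the most negative, and each is given below by library. By limma 0 of 129 members were higher and 0 lower, where 0.0692% of all genes tested were higher and 0.0252% lower. At an unadjusted p under 0.05 there were 6 members higher and 1 lower, where 2.74% of all genes were higher and 3.63% lower. The members' changes ran from -0.77 to 0.90 with a median of 0.11, and all genes had a median of 0. With 2 libraries a group, a change of this size may be missed.

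Zfp944 (chr17:22474956-22498367, minus strand), a KRAB member with 11 fingers, stood at 8.26 and 6.73 FPKM in the WT LZ pair against 14.6 and 14.9 in the null pair. The genotypes did not overlap at LZ, and the change was 0.90 ± 0.22 (adjusted p = 0.550), in a gene that shares 8.32% of its 50-base stretches with others. Zfp691 stood at 4.51 and 1.49 against 4.58 and 6.94, a change of 0.84 ± 0.40 (adjusted p = 0.825). Zfp935 stood at 20.2 and 12 against 29.9 and 24.7, a change of 0.77 ± 0.28 (adjusted p = 0.728). In the other direction Zfp414 stood at 24.9 and 33.7 in the WT LZ pair against 18.1 and 15.1 in the null pair. Both null values were below both WT values, with a change of -0.77 ± 0.29 (adjusted p = 0.739). Zfp692 stood at 15.0 and 14.7 against 6.92 and 11.8, a change of -0.65 ± 0.30 (adjusted p = 0.810), and Zfp771 changed by -0.53 ± 0.30 (adjusted p = 0.870).

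At PD many members differed between the genotypes, in both directions. Zfp185 and Zfp740 were near 0 in WT PD and higher in Cnot4-null PD, while Zfp54 and Zfp956 were lower in the null. This comparison and the WT stage change share the WT PD libraries, so the values of each are given and no overlap is read. By limma 40 of 129 members were higher in the null (31.0%) and 24 lower (18.6%), where 41.6% of all genes tested were higher and 11.5% lower. Among genes with a mean of at least 5 FPKM the shares were 39.3% and 16.3%. Members higher in the null ran from 0.65 (Zfp706) to 3.17 and those lower from -0.83 to -1.83.

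The direction of the members as a set at PD turned with scaling, from 40 higher and 24 lower on the FPKM scale to 11 and 57 after quantile normalization and 13 and 78 after rescaling. The members' median went from 0.14 to -0.68 and -1.10, and that of all genes from 0.66 to -0.10 and -0.21. Among genes with a mean of at least 5 FPKM the median was 0.30, -0.16 and -1.01, nearer to the members than that of all genes under each scaling. All genes had 2835 higher and 4078 lower after quantile normalization and 3704 and 6378 after rescaling. All 24 members lower in the null were also called lower under both other scalings, while 11 and 13 of the 40 higher ones were kept. Leaving out a library gave 19 higher and 4 lower without WT PD 1, 20 and 1 without WT PD 2, 40 and 30 without Cnot4-null PD 1, and 31 and 14 without Cnot4-null PD 2. Over all genes these counts were 3871 and 470, 3646 and 411, 7078 and 2878, and 6221 and 1096, beside 6619 and 1830 in the full fit.

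Among members higher in the null, Zfp185 stood at 0.344 and 0.455 FPKM in the WT PD pair against 6.71 and 19.5 in the null pair. The genotypes were far apart and so were the null duplicates, and the change was 3.17 ± 0.43 (adjusted p = 0.00124), or 2.50 relative to all genes. Zfp740 stood at 0.218 and 0.166 in the WT PD pair against 6.19 and 11.3 in the null pair, a change of 2.98 ± 0.31 (adjusted p = 0.000436). Zfp583 (chr7:6267262-6282887, minus strand), a KRAB member with 12 fingers, stood at 0.05 and 0 in WT PD and at 3.21 and 9.45 in the null. One WT PD library listed it at 0, and it was higher by 2.69 ± 0.43 (adjusted p = 0.00229). Zfp292 (chr4:34750362-34830209, minus strand), with 14 fingers, stood at 0.419 and 0.324 against 4.03 and 11.2. It was higher by 2.52 ± 0.41 (adjusted p = 0.00249), and after quantile normalization it was not called (1.33, adjusted p = 0.0524). Zfp655 stood at 2.09 and 1.77 against 11.7 and 19.7, a change of 2.47 ± 0.28 (adjusted p = 0.000574). For these 5 genes the call was kept whichever PD library was left out.

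Among members lower in the null, Zfp54 stood at 23.6 and 22.9 FPKM in the WT PD pair against 5.52 and 6.16 in the null pair. The genotypes did not overlap, and the change was -1.83 ± 0.48 (adjusted p = 0.0165), or -2.49 relative to all genes. Zfp956 stood at 94.3 and 93.4 against 43.5 and 17.6, a change of -1.72 ± 0.41 (adjusted p = 0.0113). Zfp389 stood at 185 and 211 against 102 and 36.0, a change of -1.69 ± 0.51 (adjusted p = 0.0276). In both the WT PD pair was tight and the null pair wide. Zfp286 (chr11:62566879-62602964, minus strand), a KRAB member with 10 fingers, stood at 12.8 and 13.5 against 7.09 and 1.42, a change of -1.68 ± 0.59 (adjusted p = 0.0454). Zfp35 stood at 102 and 100 against 41.1 and 24.6, a change of -1.63 ± 0.34 (adjusted p = 0.00714). Each of these 5 calls ended without WT PD 1 and without WT PD 2, with adjusted p up to 0.0902 for Zfp54, 0.0684 for Zfp956, 0.152 for Zfp389, 0.232 for Zfp286 and 0.0513 for Zfp35. Those of Zfp389 and Zfp286 also ended without Cnot4-null PD 2, and that of Zfp54 without either Cnot4-null PD library. Zfp54 and Zfp286 are among the 6 genes that are members only through WT PD, and 4 of those 6 were called lower in the null, so their falls are not independent of the rule for members.

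The most abundant members fell on both sides at PD. Zfp672 changed by -1.23 ± 0.27 (adjusted p = 0.00799), and the call ended without WT PD 1 and without WT PD 2 (adjusted p up to 0.0541). Zfp330 was higher by 2.17 ± 0.24 (adjusted p = 0.000531) and Zfp607 by 1.79 ± 0.18 (adjusted p = 0.000430), and Zfp607 was not called after rescaling (0.43, adjusted p = 0.0803). Of all genes tested 41.6% were higher and 11.5% lower at PD, and at a mean of at least 5 FPKM 39.3% and 16.3%. KRAB members had 13 higher (28.9%) and 9 lower (20.0%) on the FPKM scale, 4 and 26 after quantile normalization and 5 and 28 after rescaling. Without WT PD 1 they had 7 and 0, without WT PD 2 9 and 0, and without Cnot4-null PD 2 13 and 5. The 83 members without KRAB had 27 higher (32.5%) and 14 lower (16.9%), then 7 and 30, and 8 and 49 under those scalings. These counts were 12 and 4 without WT PD 1, 11 and 1 without WT PD 2, and 18 and 9 without Cnot4-null PD 2. On chromosome 5 members had 8 higher and 0 lower, but 2 and 2 after quantile normalization and 2 and 4 after rescaling, and 4 higher without WT PD 1 or WT PD 2. All genes tested on chromosome 5 had 377 higher and 120 lower of 939, then 151 and 263, and 194 and 432. Chromosome 8 members had 4 higher and 0 lower of 12 on the FPKM scale, beside 316 and 82 of 807 genes tested there. Fewer of these members were called higher without WT PD 1 or WT PD 2. The X-linked Zfp711 and Zfp185 were higher under all 3 scalings, on a chromosome where 482 of 648 genes tested were higher and 2 lower.

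**Figure D5:**
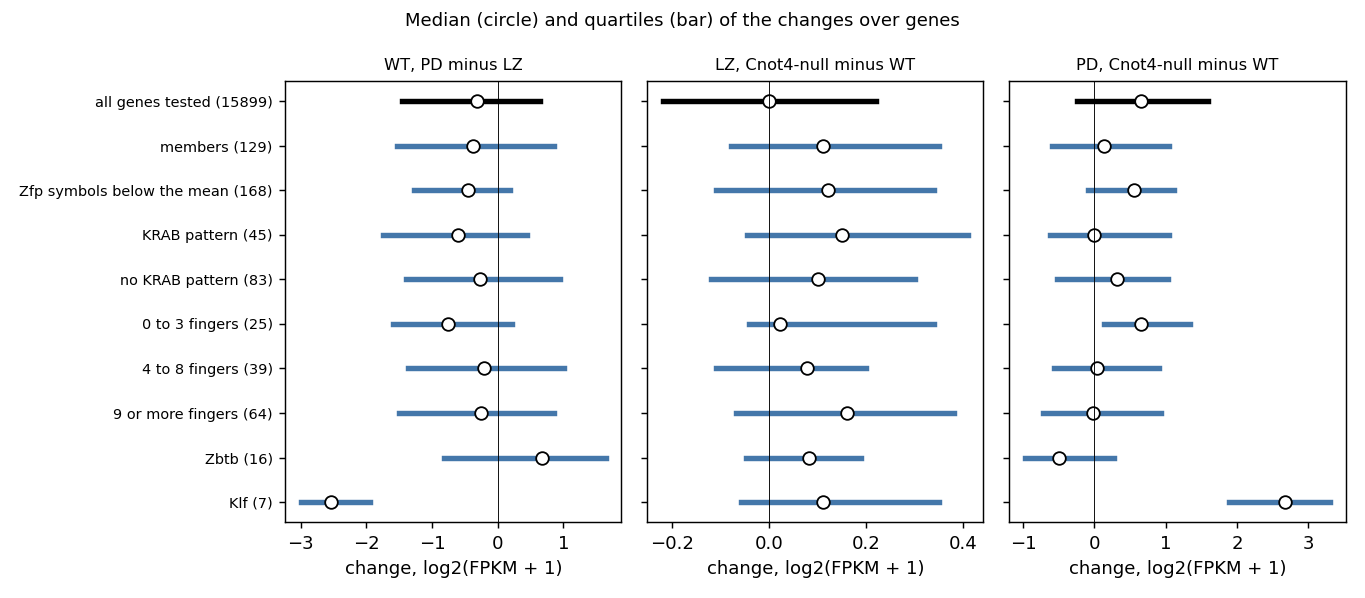
Median (circle) and quartiles (bar) of the log2 change in sets of zinc finger genes and all genes tested, for the WT stage change and the genotype changes at LZ and PD on the FPKM scale. For KRAB members the median is -0.61 in the WT stage change and 0.0012 at PD, and it turns to 0.070 and -0.98 after quantile normalization.

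The test of whether the stage step differed between genotypes, which is also whether the genotype change differed between stages, found members on both sides. Among the called differences of genes named here, those of Zfp185, Zfp740 and Zfp692 were the most positive, and those of Zfp189 and Zfp35 the most negative, where Zfp189 is a member only through WT PD. By limma 22 members had a positive difference (17.1%) and 15 a negative one (11.6%), where 26.0% of all genes tested were positive and 3.97% negative. Among genes with a mean of at least 5 FPKM these shares were 29.0% and 5.61%. Under quantile normalization 4 were positive and 33 negative, and after rescaling 7 and 69, with all genes at 1548 and 1966, and at 2167 and 5146. Genes with a mean of at least 5 FPKM had 1378 and 1052 after quantile normalization, the opposite balance, and 1350 and 4358 after rescaling. All 15 negative differences of members were kept under both scalings, and 4 and 7 of the 22 positive ones. Leaving out any single WT or Cnot4-null LZ library lowered both counts over all genes tested, as it did those of the members, given next. Without WT LZ 1 there were 11 positive and 2 negative, without WT PD 1 5 and 0, without WT PD 2 6 and 0, without Cnot4-null LZ 1 12 and 1, and without Cnot4-null LZ 2 9 and 3. Without WT LZ 2 there were 15 and 10, without Cnot4-null PD 1 31 and 28, and without Cnot4-null PD 2 21 and 8.

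Of the 24 tested Zfp genes listed for a known role, 7 rose and 8 fell from LZ to PD in WT, with 9 and 4 after quantile normalization and 10 and 3 after rescaling. Their shares of 29.2% and 33.3% stand beside 21.6% and 36.2% of all genes tested, and 27.4% and 43.2% at a mean of at least 5 FPKM. The falls numbered 5 without WT PD 1. Zfp541, which acts in pachytene cells with KCTD19 and the histone deacetylases HDAC1 and HDAC2, stood at 8.07 and 13.4 FPKM in WT and 15.7 and 7.57 in the null at LZ, and at 45.4 and 46.5 in WT and 29.5 and 19.1 in the null at PD. All 4 PD libraries lay above all 4 LZ libraries. It rose by 2.04 ± 0.39 in WT (adjusted p = 0.00301), and its genotype change at PD was -0.92 ± 0.39 (adjusted p = 0.0801), which was called after quantile normalization (-1.09, adjusted p = 0.0438) and after rescaling (-2.31, adjusted p = 0.00142). Zfp42 (Rex1), a marker of pluripotent cells, stood at 6.72 and 9.31, 14.8 and 9.68, 23.9 and 26.4, and 21.7 and 12 in the same order of groups. It rose by 1.55 ± 0.34 in WT (adjusted p = 0.00572). Zfp37, first described from testis, stood at 2.03 and 2.22, 1.82 and 1.53, 9.22 and 9.11, and 18.2 and 8.34. It rose by 1.70 ± 0.35 in WT (adjusted p = 0.00460) and by 2.33 ± 0.35 in the null (adjusted p = 0.00224), and it is a member only through Cnot4-null PD, so its rise in the null is not independent of the rule for members. Zfp318, a cofactor of the androgen receptor, stood at 46.5 and 33.4, 45.7 and 39.3, 110 and 113, and 45.9 and 36.6. Only WT PD was high, with a rise of 1.48 ± 0.23 in WT (adjusted p = 0.00102), a genotype change at PD of -1.42 ± 0.23 (adjusted p = 0.00232) and a difference between the stage steps of -1.53 (adjusted p = 0.0139), which ended without Cnot4-null LZ 1, WT PD 1 or WT PD 2 (adjusted p up to 0.0690).

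Zfp445 and Zfp809 are KRAB members known to silence chosen loci. In the WT stage change Zfp445 was at 0.31 ± 0.21 (adjusted p = 0.245) and Zfp809 at 0.44 ± 0.22 (adjusted p = 0.130), and both were called higher after quantile normalization (0.63 and 0.79) and after rescaling (1.16 and 1.27). Zfp445, which keeps imprints, stood at 12.7 and 12 FPKM in WT and 17 and 14.3 in the null at LZ, and at 15.9 and 15.3 in WT and 9.20 and 11.3 in the null at PD. Its genotype change at PD was -0.57 ± 0.21 (adjusted p = 0.0537) on the FPKM scale and was called after quantile normalization (-1.29, adjusted p = 0.00413) and after rescaling (-1.90, adjusted p = 0.000451). Zfp809, which recruits TRIM28 to retroviral sequence, stood at 9.66 and 9.30, 12.3 and 16.6, 13.7 and 12.7, and 9.01 and 9.03. At LZ the null was above WT and at PD below it, without overlap, and the difference of -1.05 passed the test (adjusted p = 0.0416). That call ended without either WT LZ library, either WT PD library or Cnot4-null LZ 2 (adjusted p up to 0.154).

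Some listed members bind promoters or chromatin complexes. Zfp410, the activator of Chd4, stood at 25.2 and 35.1 FPKM in WT and 21.3 and 22.4 in the null at LZ, and at 5.01 and 6.13 in WT and 5.44 and 7.18 in the null at PD. The stages were apart in both genotypes, and it fell by 2.23 ± 0.25 in WT (adjusted p = 0.000237) and by 1.65 ± 0.25 in the null (adjusted p = 0.00219). Zfp281, a regulator of pluripotency, fell by 1.11 ± 0.22 in WT (adjusted p = 0.00357), a call lost after rescaling (-0.27, adjusted p = 0.286). Zfp148, which binds GC-rich promoters, changed by -1.13 ± 0.23 in WT (adjusted p = 0.00384) and was not called under either other scaling. Without WT LZ its mean was below 5 FPKM, as was that of Zfp335, given next. Their falls are thus not independent of the rule for members. Zfp335, part of a histone H3 lysine methyltransferase complex, changed by -1.27 ± 0.30 (adjusted p = 0.00791), which ended without WT PD 1 (adjusted p = 0.0599) and under both other scalings. Zfp143, found at promoters and loop anchors, and Zfp217, which binds corepressors, were not called in the WT stage change, at -0.69 ± 0.33 (adjusted p = 0.114) and -0.014 ± 0.19 (adjusted p = 0.980), the latter called after rescaling (0.84, adjusted p = 0.00600).

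Other members act on RNA or proteins. Zfp91, an E3 ubiquitin ligase, stood at 40.5 and 24.6 FPKM in WT and 42.6 and 31.3 in the null at LZ, and at 65.5 and 66.2 in WT and 51.0 and 38.0 in the null at PD. It rose by 1.04 ± 0.29 in WT (adjusted p = 0.0178), a call lost without WT LZ 2, WT PD 1 or WT PD 2 (adjusted p up to 0.105). Zfp207 fell by 0.70 ± 0.18 in WT (adjusted p = 0.0126), a call lost without WT LZ 1, WT PD 1 or WT PD 2 (adjusted p up to 0.0733), and its value turned to 0.18 after rescaling. Zfp326, part of a complex that links transcription to splicing, changed by -0.92 ± 0.28 in WT (adjusted p = 0.0267), which ended without WT LZ 1, WT PD 1 or WT PD 2 (adjusted p up to 0.147) and under both other scalings. Zfp106, which binds RNA, stood at 5.72 and 4.20, 6.77 and 7.66, 3.18 and 3.43, and 9.12 and 11.3. It was higher in Cnot4-null PD than in WT PD by 1.37 ± 0.25 (adjusted p = 0.00400), but 0.28 after quantile normalization and 0.16 after rescaling did not pass. Zfp451, a SUMO ligase, was higher by 0.76 ± 0.27 (adjusted p = 0.0482), a call lost without WT PD 1, WT PD 2 or Cnot4-null PD 1 (adjusted p up to 0.197) and turned to -0.62 after rescaling.

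The silencing machinery that KRAB members use was measured through 16 genes. Trim28 stood at 107 and 101 FPKM in WT and 117 and 95.4 in the null at LZ, and at 131 and 116 in WT and 113 and 65.9 in the null at PD. It was not called in the WT stage change (0.25 ± 0.27, adjusted p = 0.486) or between genotypes at PD (-0.51 ± 0.27, adjusted p = 0.147) on the FPKM scale, and it was called in both after rescaling, at 1.13 and -1.94. After quantile normalization the WT stage change of Trim28 turned to -0.21 (adjusted p = 0.270). The change at PD was then -0.26 (adjusted p = 0.192), and neither was called. Setdb1, its methyltransferase, stood at 49.1 and 57.9, 63.0 and 54.3, 20.0 and 20.7, and 20.5 and 24.5. It was lower at PD than LZ in both genotypes and fell by 1.35 ± 0.20 in WT (adjusted p = 0.000819). Cbx3, an HP1 protein, stood at 424 and 406, 406 and 404, 78.7 and 70.5, and 205 and 243. It fell by 2.46 ± 0.18 in WT (adjusted p = 4.35e-05) and was higher at PD in the null by 1.57 ± 0.18 (adjusted p = 0.000630), which ended after rescaling (0.14, adjusted p = 0.512). Of the 16 genes 1 rose (6.25%) and 9 fell (56.2%) in the WT stage change on the FPKM scale, beside 21.6% and 36.2% of all genes tested, 1 and 7 did after quantile normalization, and 6 and 5 after rescaling. Without WT PD 2 the falls numbered 5, and without WT LZ 1 or WT PD 1 they numbered 6. At PD 5 were higher (31.2%) and 0 lower in the null, beside 41.6% and 11.5% of all genes tested, but 2 and 10 after rescaling, and without Cnot4-null PD 1 6 were higher and 5 lower.

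Kctd19, a listed partner of ZFP541, stood at 7.22 and 8.23 FPKM in WT and 7.01 and 3.33 in the null at LZ, and at 134 and 124 in WT and 97.4 and 53.5 in the null at PD. It rose with Zfp541 in WT, by 3.90 ± 0.37 (adjusted p = 0.000115), and its genotype change at PD was -0.83 ± 0.37 (adjusted p = 0.0952), called after rescaling (-2.25, adjusted p = 0.00144). Of the 4 listed ZFP541 partners, 1 rose and 1 fell in WT. Hdac2, the one that fell, stood at 123 and 124, 126 and 124, 13.7 and 18.1, and 62.2 and 71.9. It fell by 2.89 ± 0.20 in WT (adjusted p = 3.47e-05). At PD Hdac2 was higher in the null by 2.02 ± 0.20 (adjusted p = 0.000352), and it was called under both other scalings (1.74 and 0.63). The other 3 listed partners were not called between genotypes at PD on the FPKM scale.

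The 168 tested Zfp symbols below the mean of 5 FPKM had 17 rises and 54 falls in WT, but 33 and 30 after quantile normalization and 33 and 43 after rescaling. Without WT PD 1 they had 12 and 29 and without WT PD 2 10 and 30. At PD they had 54 higher and 5 lower in the null on the FPKM scale, but 4 and 73 after quantile normalization and 23 and 47 after rescaling. Without WT PD 1 they had 18 and 0 and without WT PD 2 16 and 0. Among other zinc finger families, 16 of 37 Zbtb genes reached the same mean, with 7 rises and 5 falls in WT and a median of 0.68, and with rises in the majority under both other scalings too. The Zbtb falls numbered 3 without WT LZ 1 or WT PD 1 and 1 without WT PD 2. The 7 Klf genes of 17 that reached the mean had 0 rises and 5 falls in WT under all 3 scalings, with a median of -2.53. At PD all 7 Klf genes were higher in the null on the FPKM scale, as were 5 under each of the other scalings and 6 without any 1 PD library. The 16 Zbtb genes had 3 higher and 6 lower in the null at PD on the FPKM scale, with a median of -0.50. Fewer of them were called lower without WT PD 1 or WT PD 2. Over all genes tested 21.6% rose and 36.2% fell in WT, and 41.6% were higher and 11.5% lower at PD. At a mean of at least 5 FPKM these shares were 27.4%, 43.2%, 39.3% and 16.3%. Of the other families counted, 9 of 24 Zfp symbols that end in a letter, 3 of 15 Zscan, 4 of 9 Zkscan and 3 of 14 Prdm genes reached the mean.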

How the data were processed

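The authors mapped reads to mm9 with TopHat2 2.1.1 and made the deposited FPKM with Cufflinks 2.2.1. The deposited files hold FPKM without read totals, and the authors' totals were not used here. Genes above 1 FPKM in at least 1 library were tested by limma 3.58.1 in R 4.3.3 on log2(FPKM + 1), with trend, all 8 libraries in 1 fit and Benjamini-Hochberg adjustment over all genes tested in each of 5 contrasts. Changes are Cnot4-null minus WT or PD minus LZ, errors are standard errors, and called means adjusted p under 0.05. With 2 libraries a group the fit has 4 residual degrees of freedom, and p-values measure only the spread between libraries.

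Genes named are the 6 members with the highest mean, the 5 largest called rises and falls without overlap in the WT stage change and at PD, the 3 largest changes each way at LZ, listed members with a known role, and the genes at the edge of the rule. Others were named outside these rules, among them Zfp110 and Zfp566 for their KRAB sequences, genes that end a range or lack fingers, and Zfp428, Zfp622, Zfp598 and Zfp593 after their values were seen. Members and lists were chosen with earlier results of these data known. Finger and KRAB patterns came from GENCODE vM1 translations, since no RefSeq proteins were at hand. Promoters are from RefSeq (GRCm38.p6; 109 of 129 members matched). One coding sequence is not reported here.

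Alternatives tried were no filter or a mean of at least 5, a pseudocount of 0.1, quantile normalization, rescaling to the same median, no trend, only the libraries compared, a replicate block, each library left out, adjusted p under 0.01, other means for membership, neither Cnot4-null PD library, and members with little shared sequence.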

Additional observations from a re-analysis of the deposited data

Results flagged for a closer look

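Each gene here had a stage step that differed between the genotypes by limma (interaction, adjusted p under 0.05), which is the same as a genotype change that differed between PD and LZ. The genes listed are those named by the rules given above, and not all members called, which were 22 positive and 15 negative. Zfp428, Zfp622, Zfp566 and Zfp110 were also called and are not listed here. Values are the log2 step in Cnot4-null minus that in WT. Falls were called in both genotypes, smaller in the null, for Zfp711 (2.04, adjusted p = 0.00703) and Zfp607 (1.18, adjusted p = 0.0164). Falls were called in WT and not in the null for Zfp740 (3.02, adjusted p = 0.00398) and Zfp655 (2.55, adjusted p = 0.00467). The same held for Zfp330 (1.71, adjusted p = 0.0110) and Zfp414 (1.84, adjusted p = 0.0167). It also held for Zfp185 (3.19, adjusted p = 0.00995), Zfp583 (2.27, adjusted p = 0.0301) and Zfp292 (2.17, adjusted p = 0.03). Zfp692 fell in WT and was not called in the null (2.91, adjusted p = 0.00407). Zfp771, not called in WT, rose in the null (1.42, adjusted p = 0.0412).

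Steps were more positive in WT for Zfp318 (-1.53, adjusted p = 0.0139), Zfp189 (-2.07, adjusted p = 0.0156), Zfp35 (-1.63, adjusted p = 0.0419), Zfp944 (-1.14, adjusted p = 0.0307) and Zfp809 (-1.05, adjusted p = 0.0416). Zfp189 is a member only through WT PD, so its difference is not independent of the rule for members. Among the genes listed here, the differences of Zfp740, Zfp711, Zfp655 and Zfp692 were called whichever of the 8 libraries was left out. Each of the others was lost without at least 1 library, with WT PD 1 and WT PD 2 among them. The difference of Zfp771 was lost whichever of the 8 was left out, and those of Zfp583, Zfp292, Zfp35 and Zfp944 were lost without any of 6. Under quantile normalization the positive differences of Zfp740, Zfp692 and Zfp330 were still called, and after rescaling those of Zfp740, Zfp692, Zfp185, Zfp655 and Zfp583, while the negative ones were called under both. Both Cnot4-null PD libraries hold the markers of other cells given in the report, and their part in these differences was not tested.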

How the results depend on the processing

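Of 908 values for 67 changes of named genes, 783 kept their direction and their side of the threshold, 70 kept direction but were no longer called, 24 became called and 31 turned sign. The cause of these shifts was not tested.

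Members higher and lower in the WT stage change numbered 58 and 31 after rescaling, 21 and 29 with a mean of at least 10 (73 members), 50 and 107 with no minimum (297 tested of 339), and 84 fell with a mean of at least 2 (214). In the null stage change they numbered 10 and 58 after quantile normalization, 8 and 66 after rescaling, 4 and 7 with only the libraries compared, 8 and 10 at adjusted p under 0.01, 9 and 22 with a mean of at least 10, 38 and 58 with no minimum, and 30 rose with a mean of at least 2. At PD the counts were 11 and 57, and 13 and 78 under the scalings, 23 and 8 at adjusted p under 0.01, 20 and 15 with a mean of at least 10, 69 and 94 higher with a mean of at least 2 and with no minimum, and 15 lower with only the libraries compared. Interaction counts were 4 and 33, and 7 and 69 under the scalings, 7 and 0 at adjusted p under 0.01, 13 and 37 positive with a mean of at least 10 and with no minimum, and 7 negative with no filter. At LZ every setting gave 0.

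With a replicate block, pairing libraries by number, the counts were 32 and 51 in WT, 16 and 33 in the null, 40 and 23 at PD and 18 and 11 in the interaction. Deviations of paired libraries correlated at -0.0651 to 0.0826, and at 0.194 between Cnot4-null LZ and PD. Leaving out 1 library, with the lone library of its group assumed to vary like the others, gave 23 to 29 higher and 40 to 48 lower in WT, 6 to 23 and 10 to 39 in the null, 19 to 40 and 1 to 30 at PD, and 5 to 31 and 0 to 28 in the interaction. Alternatives chosen after seeing the data gave WT counts of 34 and 53 when neither Cnot4-null PD library was fitted. Over 114 members with little shared sequence they gave 29 and 47 in WT and 35 and 21 at PD.

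Medians of members turned to 0.10 and 0.44 in WT, to -0.68 and -1.10 at PD and to -0.78 and -1.27 in the interaction after quantile normalization and rescaling, and to -0.037 in the interaction with a mean of at least 10. In the WT stage change, rescaling turned Zfp672 to 0.88, Zfp207 to 0.18, Zfp143 to 0.045 and Zfp451 to 0.54, and quantile normalization and rescaling turned Zfp106 to 0.23 and 0.26 and Zfp217 to 0.21 and 0.84. At PD these turned Zfp143 to -0.62 and -0.56, Zfp148 to -0.86 and -0.59, Zfp281 to -0.46 and -1.20, Zfp37 to -0.46 and -0.91, Zfp326 to -0.38 and -1.10, Zfp410 to -1.01 and -1.09, and Zfp217 to -0.0067 and -1.01. Quantile normalization turned Zfp335 to -0.14, and rescaling turned Zfp207 to -0.98 and Zfp451 to -0.62. Left-out libraries turned Zfp672 in WT (range -0.26 to 0.25, with 0.25 without WT LZ 2 and 0.0085 without WT PD 2), Zfp217 in WT (range -0.091 to 0.063, with 0.056 without WT LZ 1 and 0.063 without WT PD 1), Zfp37 at PD (range -0.12 to 0.92, lowest without Cnot4-null PD 1) and Zfp410 at PD (range -0.024 to 0.32, lowest without Cnot4-null PD 2).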

Other observations

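Members whose proteins work on ribosomes, Zfp622, Zfp598 and Zfp593, were looked at after their values were seen, and they form no tested set. Zfp622, which acts in maturation of the large ribosomal subunit, stood at 37.6 and 36.1 FPKM in WT and 58.4 and 40.3 in the null at LZ, and at 5.91 and 5.33 in WT and 24.5 and 22.8 in the null at PD. WT PD was the lowest group, with no overlap. It fell by 2.52 ± 0.23 in WT (limma, adjusted p = 9.39e-05) and was higher at PD in the null by 1.90 ± 0.23 (adjusted p = 0.000731). Zfp598, the E3 ligase that marks collided ribosomes, stood at 27.3 and 19.7, 17.3 and 20.4, 7.19 and 6.93, and 18.6 and 10.7. It fell by 1.59 ± 0.30 in WT (adjusted p = 0.00292), a call lost after rescaling (-0.78, adjusted p = 0.0669). Zfp593 fell by 1.07 ± 0.31 in WT (adjusted p = 0.0203), a call lost under both other scalings and without WT LZ 1, WT PD 1 or WT PD 2 (adjusted p up to 0.111). Falls were common in WT, at 41.1% of all members.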
